A study of Mus musculus with 1111 samples.

Results

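Plasma high microglia were the mouse brain cells that carried the strongest fluorescent plasma signal in a single-cell RNA experiment. A cell belonged to this group when its title gave a high plasma intensity, so the RNA itself played no part in the choice. Of the cells with that title, 88.6% could be matched to a column of counts by well and by a number from 1 to 3 after the letters TH. Cells were kept with 50000 or more gene reads and a read in 500 or more genes, which left 290 plasma high cells among 987 cells in all (29.4%). TH 1 gave 34.8% of the 290, TH 2 gave 96 cells and TH 3 gave 93.

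All cells were labelled as microglia from brains of young mice, 3 months of age, into which plasma proteins tagged with the dye NHS-Atto647N had been injected 20 hours before. Age, injection and time were shared by all groups, and the other 2 were microglia with no plasma signal (plasma none, 35.1% of the 987 cells) or a weaker one (plasma low, 35.6%). RNA was read by Smart-seq2, which makes 1 full-length library from each sorted cell. No label named an animal, a strain or a sex, and the meaning of the TH number is not stated, so each group counted as 1 sample and no test was made. Errors are the SD over the 3 TH numbers (n = 3), a spread that may be technical. Shares of cells with a read were taken after each cell's reads were thinned at random to 50000, so that all cells had equal depth.

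Microglia are the resident macrophages of the brain. They depend on signals from their surroundings to keep a resting identity, which is marked by surface receptors such as P2ry12 and Tmem119, and they clear debris, lipids and proteins through lysosomes. They are also the main brain source of C1q, the starter protein of the classical complement pathway. When they meet damage or lipid they are known to raise genes of lipid transport and lysosomal breakdown such as Apoe and Lyz2, and cytokine genes when stimulated by microbes or injury.

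The label was checked against marker genes. Every one of the 290 cells held at least 3 of 11 microglia markers at 10 or more CPM, the reads of a gene scaled to the same total in each cell. These markers made up between 0.41% and 14.2% of a cell's reads, with a median of 4.67%. They include Apoe, and the highest share was that of a cell with Apoe at 93391 CPM, in well I20 of TH 3. Of the 5 genes given as marks of the group, Tmem119 and P2ry12 were read in 98.2% ± 2.16 and 98.95% ± 1.04 of cells. Lyz2 was read in 56.5% ± 2.09, Cd52 in 45.1% ± 4.44 and Apoe in 27.3% ± 2.25, so Cd52 and Apoe were each read in fewer than 50% of cells. Of 8 markers of border-associated macrophages, the macrophages of the brain's coverings and vessels, 6 had no read in any cell at equal depth. The other 2, Mrc1 and Cbr2, reached 0.677% and 0.330% of cells. Monocyte markers had no read for 5 of 6 genes, and Ccr2 was in 0.677%. For a marker read in 0 of 290 cells, a share of up to 1.03% of cells with a read is allowed, by counting error alone, and cells that hold the gene without a read are not limited by it. Single genes of other lists were common: Bsg of the endothelial list, used by many cell types, was in 82.4% of cells and Csf3r of the neutrophil list in 63.3%. Slc1a3 of the astrocyte list was in 37.9% and Cd79b of the lymphocyte list in 10.3%. Cnp of the oligodendrocyte list was in 30.7%, and 3 cells held 3 markers of that list. The defining Cldn5 of endothelial cells and Mog of oligodendrocytes had no read.

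1 cell went against its label. In well H23 of TH 2, microglia markers took 0.41% of reads, 8.77% of the group's median. This cell had 109440.4 CPM of Ttr, 21316 of Enpp2 and 9676 of Kcnj13, genes known from the epithelium of the choroid plexus. Among all other plasma high cells, Ttr was read in 0, Enpp2 in 1 and Kcnj13 in 3. It still held P2ry12 at 3736 CPM, but Siglech and Fcrls were at 0. Counts over all genes or pairs are given below with this cell and also without it, and counts within gene lists mostly with it only. The next lowest cell, in well N19 of TH 3, had 1.51% of its reads in microglia markers (32.2% of the median). Its Tmem119, Cx3cr1 and Siglech were at 0, while Cst3 stood at 78703 CPM and C1qb at 15072. A cell in well G23 of TH 2 was also low in Tmem119 (24.8 CPM) and C1qb (86.6), with P2ry12 at 6256.

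The depth of the 290 cells ran from 52587 to 2264846 reads, with medians of 235108, 404743 and 228822 in TH 1, 2 and 3. At 50000 reads the median cell of the group held 1873, 1658.5 and 1713 genes. The plasma high cells all stood in plate columns 17 to 24, apart from the columns of the other groups, so plate position and plasma signal cannot be told apart.

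C1qb and Ctss were among the 5 most abundant genes, were read in every cell and took part in several of the gene pairs described further on, so the 250 bases before their start sites are printed here. The sequences are from RefSeq on GRCm38.p6, at chr4:136886201-136886450 on the minus strand for C1qb and at chr3:95526536-95526785 on the plus strand for Ctss, 5′ to 3′. Capitals mark matches to GAGGAA, a core bound by the ETS factor PU.1, and to a repeat bound by interferon regulatory factors, GAAA followed after any 2 bases by GAAA.
C1qb: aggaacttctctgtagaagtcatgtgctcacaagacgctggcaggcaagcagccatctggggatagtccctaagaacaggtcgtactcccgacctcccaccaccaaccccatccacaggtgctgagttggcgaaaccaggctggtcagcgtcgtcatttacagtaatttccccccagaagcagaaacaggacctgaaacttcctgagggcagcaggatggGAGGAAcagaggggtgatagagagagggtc
Ctss: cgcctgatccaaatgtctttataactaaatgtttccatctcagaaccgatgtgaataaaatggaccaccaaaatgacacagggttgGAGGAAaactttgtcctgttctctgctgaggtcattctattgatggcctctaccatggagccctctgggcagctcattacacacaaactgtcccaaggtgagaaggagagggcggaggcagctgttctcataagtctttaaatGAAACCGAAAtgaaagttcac
Both strands were searched, and the 2 motifs share no letters where they matched. GAGGAA occurred 1 time before each of C1qb, Ctss, C1qc (on the other strand, as TTCCTC) and Cst3. It lay 30 bases before the start of C1qb and 230 before that of Cst3, with Ctss and C1qc in between. These distances are from the RefSeq starts. Those of Cst3 and C1qb are 180 and 13 bases away from the gene ends in the annotation used for positions here, that of C1qc also differs, and that of Ctss is the same. Of 32851 promoters of 250 bases, 23.3% held this motif. The GAAA repeat was found only before Ctss among these 4, and in 2.98% of all promoters. Each match is a description of letters and not of a bound site.

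Genes of secreted and lysosomal proteins led the order of abundance in plasma high cells. Levels are mean TPM, which are reads per length of exon scaled in the same way, and are listed for TH 1, 2 and 3 in that order. Cst3 (chromosome 2, 148871722 to 148875692), which encodes cystatin C, a secreted inhibitor of cathepsins, ranked first at 66150.5, 50306 and 58851 TPM, a mean of 58436 ± 7930.3. The cathepsins Ctss and Ctsd, proteases of the lysosome, stood at 19027, 20584 and 20489 and at 15068, 16012 and 13227 TPM. The exons of Ctsd overlap a predicted gene on the same strand over 808 bases, so its reads may be split. Lgmn, the lysosomal protease legumain, had 7909, 9635 and 7902 TPM. Cst3 was above Ctss and Ctss above Ctsd in each TH number.

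The 3 chains of C1q were all among the top 20. C1qb (chromosome 4, 136880129 to 136886187) had 19154, 19178 and 18249.6 TPM, a mean of 18861 ± 529. C1qa had 8309, 8132 and 8435 and C1qc had 6866, 6707 and 6465 TPM. C1qb was above both other chains in each TH number, and C1qa was above C1qc in each. Of the surface receptors of resting microglia, P2ry12, a receptor for ADP, had 10029.8, 10713 and 9782 TPM, and Gpr34, a receptor for lysophosphatidylserine, had 6208, 6605 and 6332. Tmem119, a membrane protein of unclear function, had 4720.3, 4437 and 4666 TPM, and Cx3cr1, the fractalkine receptor, had 4232, 4684 and 4435. These last 2 stood just outside the top 20, next to Selenop, the plasma selenium carrier, at 5032, 5661 and 5359 TPM.

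Among the rest of the top 20 were structural, mitochondrial, antigen and membrane protein genes. Actb, a cytoskeletal actin, had 12679, 12073 and 9831 TPM, and Tmsb4x, the actin-binding thymosin, had 11714, 7183 and 9417. B2m, the light chain of class I antigen complexes, had 11594, 7029 and 9112. Tmsb4x and B2m were both highest in TH 1 and lowest in TH 2. The mitochondrial genes mt-Co1 and mt-Cytb, subunits of respiratory complexes, had 8424, 9562 and 7858 and 7841, 9998 and 5358 TPM, with TH 2 high and TH 3 low in both. Itm2b and the tetraspanin Cd81 had 6791, 6601 and 6379 and 5786, 7009.6 and 6049.6. The top 20 held 29.04% ± 1.19 of all TPM (30.4%, 28.3% and 28.4%). Of the 20 genes, 2 were predicted genes that are not named. Of the 20, 19 were also in the top 20 of plasma low and 17 in that of plasma none.

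**Figure D1:**
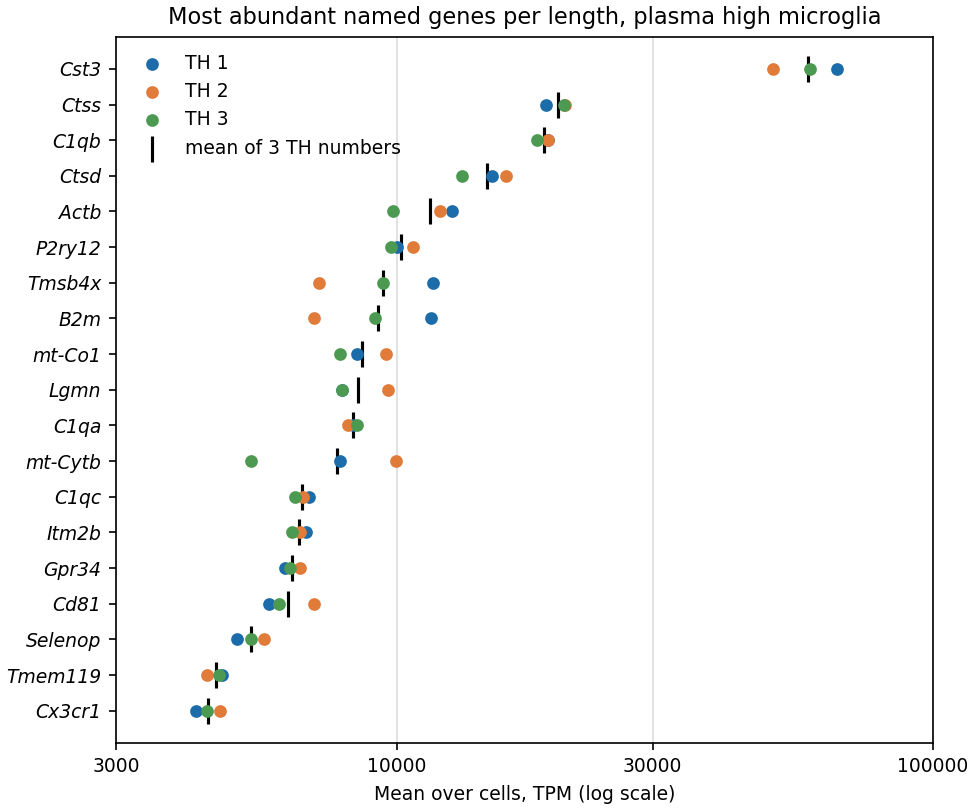
Mean level of the named genes of highest abundance in plasma high microglia, in TPM on a log axis. Points are TH 1, 2 and 3 and bars their mean. Cst3 stands to the right of the other genes plotted in each TH number, and B2m, Tmsb4x and mt-Cytb have their points farthest apart.

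Detection separated genes that nearly every cell used from those read in few. A read was found for 15081 genes in at least 1 cell (15051 without the cell in H23). Only 9 genes (11 without it) were read in every cell at equal depth, among them Cst3, Ctss, Laptm5, C1qb, C1qc, Actb and Tmsb4x. In each TH number, 77 genes were read in at least 90% of cells (78 without the cell in H23) and 500 in at least 50% (500 without it). A further 4638 genes lay between 10% and 50% (4663 without it), and 9830 were read in fewer than 10% of cells (9774 without it).

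Genes of the resting state were read in most cells. Of 16 homeostatic surface and secreted genes, 13 were read in at least 90% of cells and the other 3 in 50% to 90%. The list's median was 98.1%, and it took a median of 9.35% of a cell's reads. The lowest was Ltc4s, the leukotriene C4 synthase, at 78.2%, 73.96% and 66.7% in TH 1, 2 and 3. The transcription factors that set microglial identity were found less often, with a median of 70.8% over 10 genes and none at 90%. Bhlhe41 was in 84.7% of cells, Mef2c in 78.5%, Irf8 in 78.2% and Spi1, which encodes PU.1, in 69.9%. Sall1, a factor specific to microglia within the brain, was in 52.5%, 44.8% and 49.5%. Transcription factor levels were low per length (Sall1 161.5 ± 6.89 TPM), so a cell without a read need not lack the gene.

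Lysosomal genes were read almost as widely. Of 20 genes, 11 reached 90% of cells and 7 lay between 50% and 90%, with a median of 93.02%. They took a median of 6.51% of reads. Laptm5, a lysosomal membrane protein of blood cells, was in every cell. Npc2, the lumenal carrier of cholesterol, was in 79.2%, 71.9% and 79.6%, and Psap, the precursor of the saposins, in 95.05%, 91.7% and 90.3%. The pump subunits Atp6v0c and Atp6v1a reached 66.1% and 19.6%. Of 9 complement genes, only the 3 C1q chains reached 90%. The receptor subunits Itgam and Itgb2 were in 76.9% and 72.7%, the anaphylatoxin receptors C3ar1 and C5ar1 in 51.3% and 34.3%, and C3 itself in 0.330%.

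Uptake receptors ranged from nearly all cells to none. Of 16 genes, 1 reached 90%, 7 lay between 50% and 90%, and 6 were below 10%. Fcer1g, the signalling chain of Fc receptors, was in 100%, 96.9% and 98.9%. Fcgr3, a low-affinity receptor for antibodies, was in 89.1%, 71.9% and 77.4% and Cd14, the co-receptor for lipopolysaccharide, in 73.3%, 75% and 75.3%. Mertk, which binds dying cells through bridging plasma proteins, was in 74.3%, 64.6% and 63.4%, and Lrp1, a receptor for lipoproteins and protease complexes, in 65.3%, 52.1% and 50.5%. Tfrc, the transferrin receptor, was in 1.04%, and the scavenger receptors Msr1 and Cd36 in 0.689% and 0 of the cells.

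The activation and lipid genes split into widely and rarely read members. Of 19 genes analysed, 7 reached 90%, 3 lay between 50% and 90%, 4 between 10% and 50% and 5 below 10%. Tyrobp, an adaptor of Trem2, was in 98.3% and Trem2, a receptor for lipids, in 95.2%. Cd9, a tetraspanin, was in 96.04%, 93.8% and 90.3%. Lpl, the lipoprotein lipase, was in 11.9%, 15.6% and 10.8%, and Axl, a relative of Mertk, in 7.92%, 9.38% and 7.53%. Cst7 and Itgax were in 3.82% and 2.05%, and Spp1 and Ch25h had no read in any cell.

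Class I genes of antigen presentation were read in most cells and class II genes in few. B2m was in 98.95%, H2-D1 in 92.1%, 84.4% and 86.02% and H2-K1 in 80.2%, 73.96% and 67.7%. The class II genes H2-Aa and H2-Eb1 had no read, H2-Ab1 was in 5.54% and the invariant chain Cd74 in 8.91%, 12.5% and 8.60%. Of 12 interferon response genes, 10 were below 10% and none above 50%. Bst2, a membrane tether of viruses, was the most widely read, in 38.6%, 14.6% and 15.1%, high in TH 1 and low in the other 2. Of 15 cytokine and chemokine genes, 11 were below 10%. Ccl9 was in 43.6%, 26.04% and 37.6%, Ccl12 in 17.8%, 21.9% and 20.4% and Il1a in 14.8%, 20.8% and 15.1%, while Il1b and Tnf were each in 0.347%.

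Immediate early genes, which rise within minutes of stimulation or tissue handling, were at the low end too. Of 18 genes, 11 were below 10%, and Fos, Fosb, Egr1 and Hspa1b had no read at equal depth. Rhob was in 85.2%, 64.6% and 81.7%, Btg2 in 51.5%, 48.96% and 37.6%, Junb in 49.5%, 42.7% and 41.9% and Jun in 20.8%, 22.9% and 20.4%. Of 12 proliferation genes, 11 were below 10% and Pcna was highest, in 9.90%, 12.5% and 11.8%. Of 13 genes of iron handling and oxidative stress, the ferritin chains Fth1 and Ftl1 were in 98.96% and 97.3%. Hmox1, the heme oxygenase, was in 6.93%, 11.5% and 6.45%, and Gpx1, a glutathione peroxidase, in 77.2%, 69.8% and 62.4%. Of 81 ribosomal protein genes, 5 reached 90%, 69 lay between 50% and 90% and 7 below, with a median of 68.2%.

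**Figure D2:**
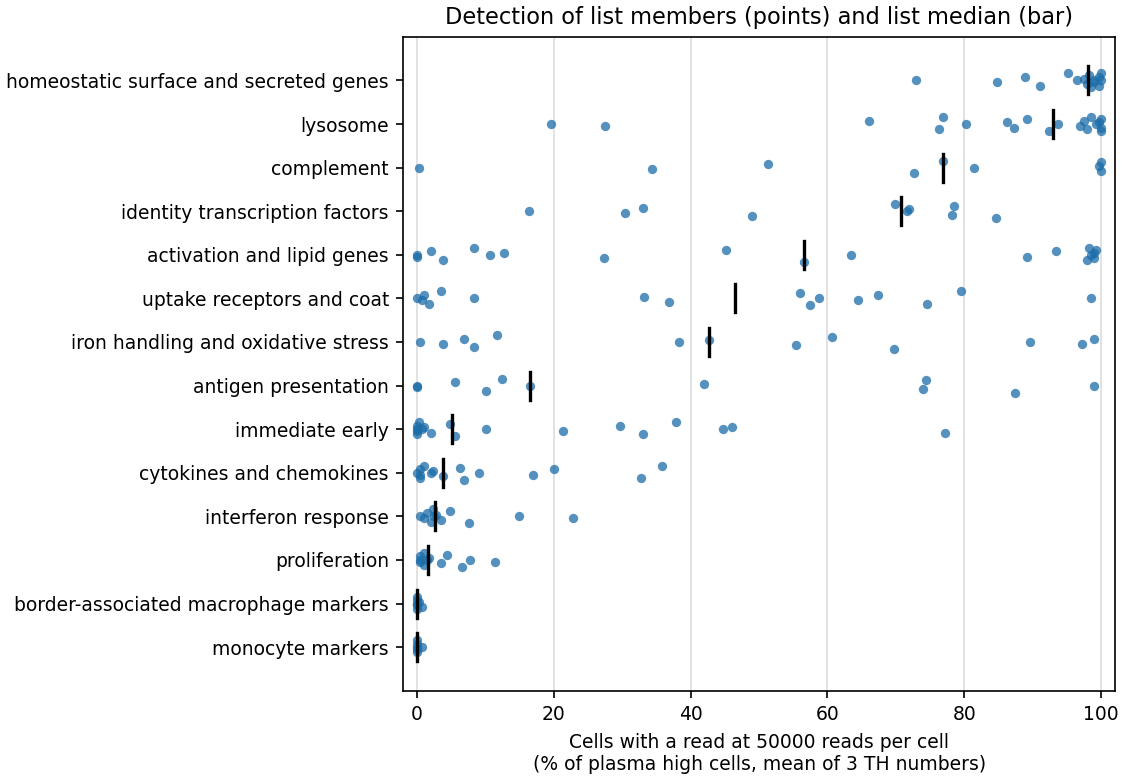
Share of plasma high cells with a read at equal depth for each gene (points) of 14 lists, as the mean of 3 TH numbers, with the list median as a bar. Homeostatic and lysosomal genes sit near the right end, and interferon, cytokine and proliferation genes sit mostly below 10%.

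Cell-to-cell variation was measured for the 2557 genes read in at least 20% of cells. The measure was the log2 ratio of the squared coefficient of variation (CV, SD over mean) to the median of genes of similar mean, and a gene was called when it lay at least 1 above or below in each TH number. By this rule 38 genes (1.49%) varied more and 4.65% varied less than genes of similar level (1.56% and 4.72% without the cell in H23). The median CV of all 2557 genes was 2.18. The genes above were read in a median of 27.6% of cells against 32.5% for all genes measured, and a median of 10.4% of their reads, against 8.06% for all genes measured, came from the single highest cell. The genes below were read in a median of 70.9% of cells, at a median level of 119.4 CPM against 129.9 for all genes measured. Levels were matched here without scaling by length, and the part of gene length in these calls was not tested. Of 81 ribosomal protein genes, 34 were below and 0 above (36 below without the cell in H23).

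Apoe, the lipid carrier, had the highest excess among genes of at least 50 CPM. Its excess was 2.41, 2.79 and 4.79 in TH 1, 2 and 3, with CVs of 3.06, 3.43 and 4.22. A read of Apoe was found in 25 cells of TH 1, 27 of TH 2 and 27 of TH 3 among all reads of each cell, so the number of cells hardly differed. Their levels did: the highest cell had 9434 CPM in TH 1, 18047 in TH 2 and 93391 in TH 3, and 0, 1 and 6 cells passed 10000 CPM. The mean level was 443.0, 621 and 2506 CPM, and 353.1, 437.7 and 1518.5 without the highest cell of each. TH 3 was high and the other 2 were close to each other with or without these cells.

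Cd83, a surface protein of activated myeloid cells, came second with an excess of 3.93, 2.53 and 2.27. It rested on few cells: in each TH number 1 cell was above 10000 CPM, at 21213, 15406 and 11162, against 1624, 3086 and 6154 in the next cell. Without the highest cell of each, the excess fell to 0.78. Ccl12, a chemokine of the monocyte chemoattractant family, had an excess of 0.53, 2.41 and 2.71, low in TH 1. Abcg1, an exporter of cholesterol, had 0.46, 2.90 and 1.81, again low in TH 1, and Maf, a transcription factor of macrophages, had 2.31, 0.38 and 2.45, low in TH 2. Ccl12, Abcg1 and Maf therefore did not meet the rule in each TH number and are named for their mean. Lifr, the receptor of leukaemia inhibitory factor, had 1.90, 1.80 and 1.37. Larp4b, Nr2c2, Slc25a36 and Yme1l1 had means of 1.84, 1.76, 1.69 and 1.67, and that of Nr2c2, a nuclear receptor, was 1.28 without the highest cells. Lyz2 (lysozyme) and Cd52, which were also read in only part of the cells, had means of 0.37 and −0.38 and did not stand apart from genes of their level.

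Among the most even genes, Grtp1, whose exons overlap the lysosomal gene Lamp1, had a mean excess of −2.80, and Rps29, a ribosomal protein gene, had −2.70. The C1q chains were even as well, with mean excesses of −2.18, −1.86 and −2.23 for C1qa, C1qb and C1qc. C1qb ran from 43.2 to 21607 CPM over the 290 cells, with a median of 6455. Tmem119 and P2ry12 had −1.17 and −1.23. Genes of similar mean were grouped into 20 bins of like size, so the bin of the most abundant genes spans a wide range of levels. The part of this in the low excess of the C1q chains, Tmem119 and P2ry12 was not tested.

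**Figure D3:**
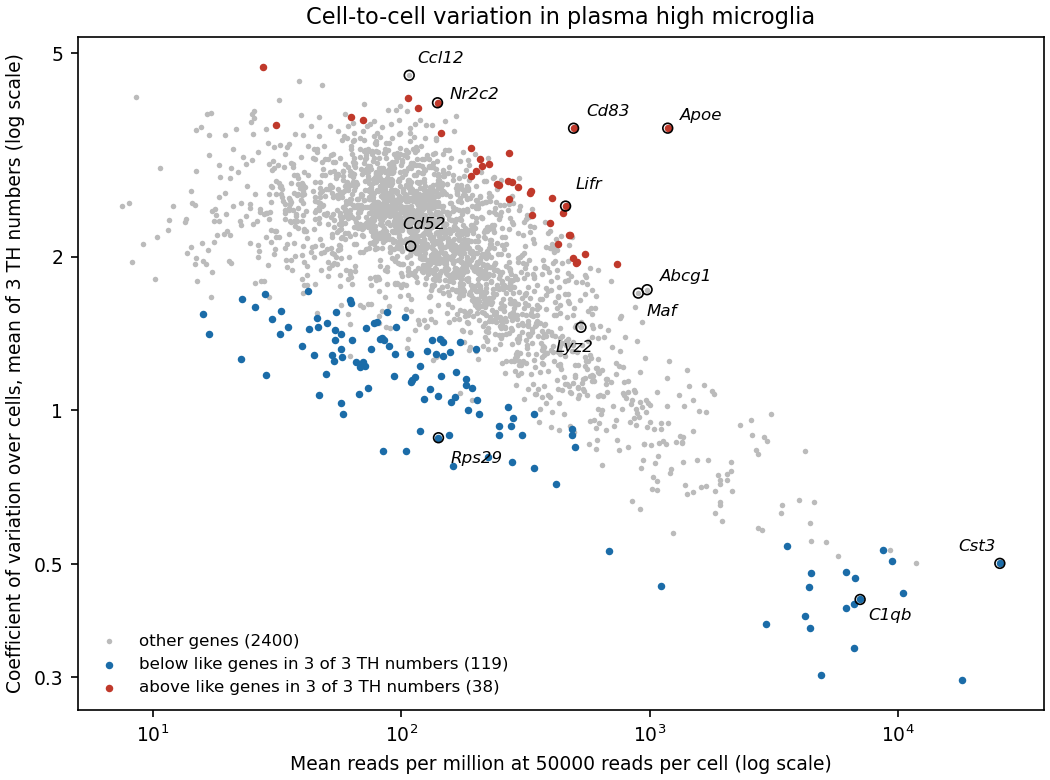
Coefficient of variation over plasma high cells against the mean level at equal depth, both on log axes, for 2557 genes. Red points (38) and blue points (4.65% of genes) lie above and below genes of similar level in each TH number. Apoe and Cd83 stand above genes of their level, and Rps29 and C1qb below.

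Some uneven genes were concentrated in the same cells. Reads of Ccl4, an inflammatory chemokine, lay almost wholly in 1 cell of each TH number: 98.7% in well B22 of TH 1, 98.5% in B20 of TH 2 and 100% in N19 of TH 3. Their Ccl4 levels were 3090.4, 13243 and 13588 CPM. These 3 cells also had the highest Cd83 and the highest Ccl3 of their TH number, and B20 and N19 had the highest Ccl12 (5989 and 7278 CPM). The cytokine and chemokine list took 1.18%, 3.68% and 3.71% of their reads, against a median of 0.042% over the group. The cell in B20 held 12 of the 15 members at 10 CPM or more. C1qb stayed within the range of the other cells in all 3, while P2ry12 was at 12.9 CPM in the cell of N19, which was also the cell second lowest in microglia markers.

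A cell in well M21 of TH 3 held 9 of 12 proliferation genes at 10 CPM or more, and they took 1.25% of its reads against a group median of 0. It had Ccna2 at 2986, Mki67 at 2272, Birc5 at 2269 and Top2a at 1727 CPM, genes of the cell cycle. Mki67 was read in no other plasma high cell. In all, 4 cells held 3 or more of these genes. Interferon response genes were at 3 or more members in 12 cells, and at most 7 of 12 in any cell. The highest share was 0.686% of reads in well K19 of TH 2, with Ifit3 at 1998 and Rtp4 at 1822 CPM. The same cell had the highest Abcg1 of TH 2 (22227 CPM) and the highest Lpl (4409 CPM).

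**Figure D4:**
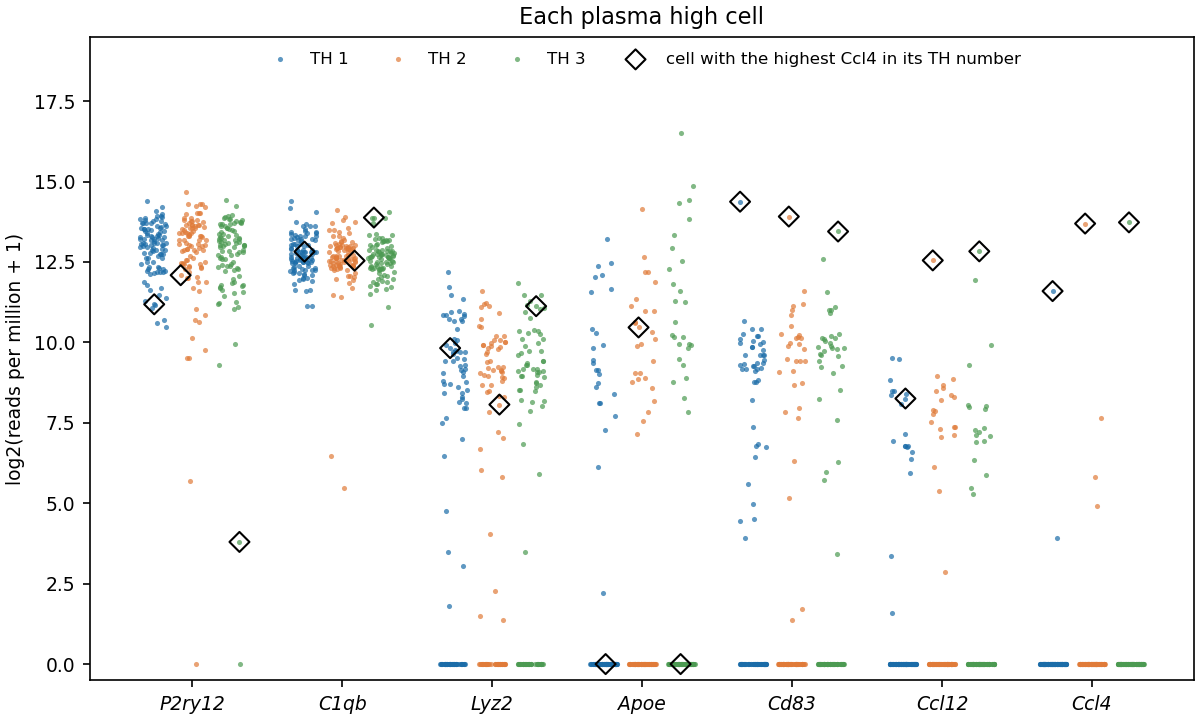
Level of 7 genes in each of the 290 plasma high cells, as log2 of CPM plus 1, in 3 columns for TH 1, 2 and 3. Diamonds mark the cell with the highest Ccl4 of each TH number. P2ry12 and C1qb form single bands with a few low cells, Apoe and Lyz2 are split between 0 and a wide upper range, and the diamonds lead in Cd83.

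Pairs of genes were compared by Spearman's rho over cells within each TH number at equal depth, where the cells of a TH number may share a source. Of 3267484 pairs of genes read in at least 20% of cells, 21 had a rho of at least 0.3 in each TH number, all of them positive, and 0 pairs reached −0.3 in each. Pairs of genes that overlap on the genome were left out. Of the 21 pairs, 9 lay within 10000 bases of each other or shared stretches of 50 bases, so that their reads could be mixed, and 12 did not. Without the cell in H23, 18 pairs stayed. When the rho was taken with the number of genes per cell held constant, 15 of 21 stayed at 0.3 or more. The 6 that did not were C1qb and C1qc (lowest rho 0.293), C1qc and Cd81 (0.280), Ctss and Cd81 (0.256), Cst3 and C1qc (0.21), Rplp0 and Fth1 (0.289), and C1qc with R74862 (0.274).

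Of the 21 pairs, 6 held a C1q chain and 4 held Cst3, and 5 of the 6 pairs lost with genes per cell held constant held a C1q chain or Ctss. Cst3 and Ctss had rhos of 0.43, 0.50 and 0.40, and Cst3 and Itm2b had 0.43, 0.51 and 0.36. C1qb and C1qc, 3617 bases apart on chromosome 4, had 0.52, 0.42 and 0.36, and C1qb and C1qa, 9730 bases apart, had 0.40, 0.35 and 0.38. C1qb and Itm2b, which lie on different chromosomes, had 0.37, 0.39 and 0.34. C1qc and Cd81 had 0.38, 0.35 and 0.32, and Ctss and Cd81 had 0.41, 0.31 and 0.39. Cst3 and C1qc, at 0.436, 0.301 and 0.433, were the last pair inside the threshold. Cst3 and C1qb were just outside it at 0.664, 0.298 and 0.606, with high values in TH 1 and 3 and a low one in TH 2. Ctss and Cd81, Cst3 and C1qc, and Rps20 and Eef1a1 are the 3 pairs lost without the cell in H23, where their lowest rhos were 0.284, 0.279 and 0.279.

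Outside that set, Tmem119 and Slc2a5, a fructose transporter known in microglia, had 0.38, 0.35 and 0.35. Their mean rho was 0.11 in plasma low and 0.11 in plasma none. The pair was picked for its value in plasma high, so the lower values elsewhere are a description only. Transcripts of the mitochondrial genome went together, with 0.51, 0.50 and 0.49 for mt-Co1 and mt-Cytb and 0.36, 0.33 and 0.37 for mt-Nd1 and mt-Cytb. Genes of translation formed 2 pairs: Rplp0 with the ferritin chain Fth1 at 0.30, 0.38 and 0.36, and Rps20 with the elongation factor Eef1a1 at 0.33, 0.30 and 0.34. Rrp8 and Taf10, 2008 bases apart, had 0.64, 0.64 and 0.58, and the tubulins Tuba1b and Tuba1c, which share 1005 stretches of 50 bases, had 0.40, 0.52 and 0.46. In these 2 pairs, and in those of C1qb with C1qc and C1qa and of mt-Co1 with mt-Cytb, shared reads cannot be told apart from joint variation. By the same rule 16 pairs were kept in plasma low and 10 in plasma none, and 10 and 8 of these were among the 21 of plasma high.

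The most negative pairs did not reach the threshold. Slc34a2, a phosphate transporter, and Bmp2k, a kinase, had −0.27, −0.47 and −0.32, and Cst3 and Bmp2k had −0.29, −0.35 and −0.27. Cap1 and Slc34a2 had −0.41, −0.40 and −0.27, Fcer1g and Cd164 had −0.27, −0.25 and −0.27, and Slc34a2 and Csf1r had −0.25, −0.40 and −0.34. With genes per cell held constant, the weakest rhos of these pairs, in the order given, were −0.172, −0.204, −0.165, −0.239 and −0.084.

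Further pairs were looked at after their values had been seen. Apoe and Lyz2 had 0.37, 0.29 and 0.41, just below the rule in TH 2. Lyz2 was read in 76%, 81.5% and 85.2% of cells with Apoe (25, 27 and 27 cells) and in 51.3%, 43.5% and 46.97% of cells without it. The share was higher with Apoe in each TH number, and the 2 ranges did not overlap. Apoe and Cd63, a tetraspanin of late endosomes, had 0.26, 0.31 and 0.42. Apoe and P2ry12 had −0.28, −0.19 and −0.23, negative in each. Lyz2 and Cd52 had 0.15, −0.07 and 0.19, with both signs, and Tmem119 and P2ry12, the markers read in nearly all cells, had only 0.10, 0.24 and 0.18.

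Sums over whole lists were compared in the same way, as shares of a cell's reads with shared members left out. Complement and lysosomal genes had rhos of 0.42, 0.48 and 0.56, and homeostatic and complement genes 0.39, 0.37 and 0.47. Complement and activation genes had 0.43, 0.31 and 0.29. Ribosomal and mitochondrial genes had 0.43, 0.22 and 0.28. Homeostatic and activation genes had 0.22, 0.07 and −0.06, so these 2 lists showed no common direction. Of 45 pairs of lists, 19 were positive and 14 negative in each TH number. Of the 14, 13 held the immediate early list (6) or the identity transcription factors (7), for example lysosomal against immediate early genes (−0.22, −0.26 and −0.34) and ribosomal genes against identity transcription factors (−0.32, −0.33 and −0.26). Shares of 1 total are bound to each other, since a larger share of 1 list leaves less for the rest.

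**Figure D5:**
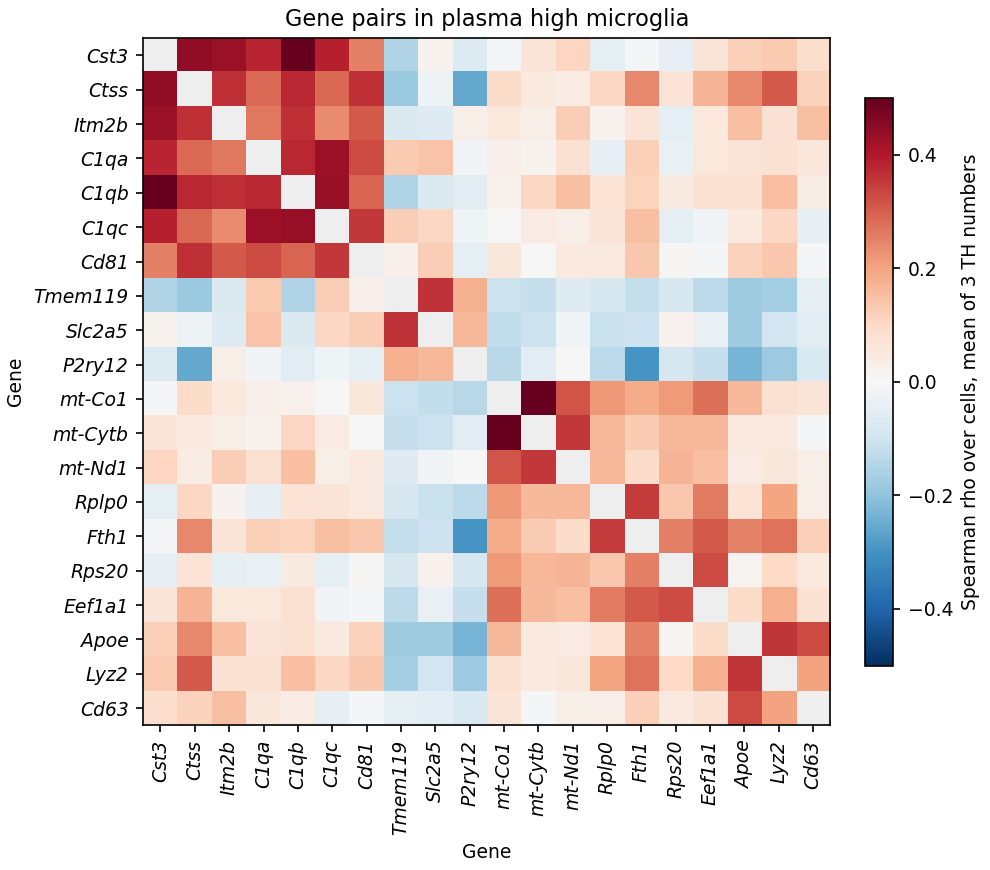
Spearman's rho between 20 genes over plasma high cells, as the mean of 3 TH numbers, from −0.5 (blue) to 0.5 (red, with larger values at the end of the scale). Cst3, Ctss, Itm2b, the C1q chains and Cd81 form a block of positive values, the mitochondrial genes another, and Apoe, Lyz2 and Cd63 a smaller one.

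Detection at equal depth was then set against the other groups, as a difference in percentage points within each TH number. A gene was counted when its mean difference was at least 10 points with the same sign in each TH number. Against plasma none, 7.12% of 4960 genes compared were read in more plasma high cells and 0 (0.0%) in fewer (7.47% and 0 without the cell in H23). The median of all genes compared was 2.73 points above plasma none. The median plasma none cell held 1603, 1450 and 1549 genes at equal depth, fewer than the 1873, 1658.5 and 1713 of plasma high, and the part of that difference in these counts was not tested.

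Lyz2 and Cd52 had the largest differences. Lyz2 was read in 57.4%, 54.2% and 58.1% of plasma high cells and in 34.5%, 31.9% and 26.5% of plasma none cells, a difference of 25.6 points ± 5.17. Cd52, a small surface glycoprotein of leukocytes, was read in 49.5%, 40.6% and 45.2% against 23.3%, 15.9% and 23.1%, a difference of 24.3 points ± 2.10. For both genes the groups did not overlap over TH numbers. Apoe was read in 6.90%, 8.85% and 8.55% of plasma none cells, below each value of plasma high. Rpl7a (22.3 points ± 6.68), Npc2 (21.4 ± 4.58) and Gpx1 (20.9 ± 7.35) came next. Of 81 ribosomal protein genes compared, 53 were counted as higher (54 without the cell in H23), with a median of 12.3 points, and of 8 mitochondrial genes compared, 6. Of 20 lysosomal genes, 4 were counted, and of 7 antigen presentation genes compared, 3. Of 16 homeostatic genes, 0 were counted, and their median was −0.67 points.

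Against plasma low the differences were few. Of 5340 genes compared, 16 (0.3%) were read in more plasma high cells and 13 (0.243%) in fewer (17 and 11 without the cell in H23). The median of all was −0.30 points. With 1 TH number left out, 8 to 15 of the 16 and 7 to 10 of the 13 genes stayed. The median plasma low cell held 2003, 1615 and 1821.5 genes at equal depth. Apoe was read in 24.8%, 28.1% and 29.03% of plasma high cells and 16.9%, 13.7% and 12.9% of plasma low cells, 12.8 points ± 4.39 more. Lyz2 was 12.7 points ± 1.41 higher, at 43.2%, 42.7% and 45.7% in plasma low. For neither gene did the groups overlap. Rpl7a was 13.6 points ± 8.71 higher, with only 4.83 points in TH 3, Adam15, a membrane protease, 13.1 ± 5.85, and Pnisr 12.5 ± 3.19. Of 13 activation and lipid genes compared, 3 were counted as higher, namely Apoe, Lyz2 and Cd52, and of 81 ribosomal protein genes, 3. Apoe, Lyz2 and Cd52 are among the genes given as marks of the group, so their count is not a result about the list. Cd52 was read in 35.6%, 39.3% and 30.2% of plasma low cells, with the value of TH 2 close to that of plasma high. The largest falls were those of the kinase Mknk1 (−12.8 points ± 6.74) and the phosphatase Ssh2 (−11.8 ± 5.30). Phgdh, the first enzyme of serine synthesis (−11.6 ± 2.07), S1pr1, a receptor for sphingosine phosphate (−11.1 ± 6.85), and Ube2b (−10.99 ± 5.90) followed. Both comparisons used the same plasma high cells, so their values are given side by side only.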

How the data were processed

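Smart-seq2 libraries of single sorted cells were analysed from the deposited tables, 1 for each TH number. Per the file headers, the deposited values are counts of reads per gene and cell. In 1 plasma none cell 2 genes held values that were not whole, which were treated as estimated counts deposited by the authors and rounded. Per the file headers, columns of TH 2 and TH 3 came from alignments reduced to top hits, and those of TH 1 carry no such note. The submitters' processing notes name bcl2fastq, Trim Galore, STAR 2.5.3a, Seurat and mm10. How reads were assigned to genes, and whether by strand, is not given in the sources used here. Of 35583 gene IDs, 35546 were in GENCODE M21 (GRCm38), 99.58% of them with identical coordinates, and exon lengths were taken from it.

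Columns were matched to cells by well and TH number, with 0 columns unmatched. The 66 labelled cells without a column, 39 of them plasma high, were not analysed here. No 2 cells had identical values (0 pairs). Cells were sorted singly and were not clustered, and doublets were not called. Each cell was thinned once, with a fixed seed, to 50000 reads for shares of cells, variation and pairs. TPM used all reads. Variation was set against the median of 20 bins of like mean. Genes entered variation and pairs with a read in at least 20% of cells, and comparisons of groups with a mean of at least 10% over both groups. The scripts were tested on simulated data. Python 3.11.15, numpy 2.4.6, scipy 1.17.1 and pandas 2.3.3 were used. Depth per cell is given in the report; counting error alone limits shares and levels of low genes, and reads without molecular identifiers are not independent molecules.

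The group, the gene lists and the measures were chosen with earlier results of these data known. The genes named were the 20 most abundant per length, the 10 most and 5 least variable with at least 50 CPM, the 15 pairs with the largest lowest rho (at most 3 of them within the ribosomal or mitochondrial genes), the 5 most negative pairs, the 5 largest rises and falls in detection of each comparison, and list members. Of the activation and lipid list, 19 of 20 genes were analysed. Predicted genes were counted but not named, and some genes that met the rule are not reported here. Pairs and single cells described beyond this rule were chosen after their values were seen. The alternatives tried were the reads that count as detection, the depth, the cell and gene filters, the scaling, the outermost wells, the thresholds, each TH number left out and, added after seeing the data, the cell in H23 left out.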

Additional observations from a re-analysis of the deposited data

How the results depend on the processing

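Counts of genes or pairs that had to agree in every TH number rise by construction when 1 TH number is left out. With 1 TH number left out, 2.55% to 3.70% of genes measured were above others of similar level, pairs that vary together numbered 81 to 95 and pairs with opposite variation 6 to 14. In the same setting genes read in more plasma high than plasma low cells numbered 30 to 49, those read in fewer 38 to 73, and those read in fewer plasma high than plasma none cells 7 to 21. With 5 reads asked for detection, 330 genes were read in at least 50% of cells, 6.01% of genes compared were higher than in plasma none and 2 genes lower. Without scaling by length, the top 20 genes held 16.65% of reads. With genes read in 10% of cells or more, 1.62% of genes varied more and 4.57% less than others of similar level, shares close to the main ones over more genes. With a rho of 0.4 asked, 6 pairs were kept, and in cells with at least 100000 reads 1 pair had opposite variation. With all reads of each cell, 1 gene was lower than in plasma none and 29 higher than in plasma low. Without the outermost wells, 4 genes were lower than in plasma none. With 20 points asked, 0.202% of genes were higher than in plasma none, 0 higher and 0 lower than in plasma low. The causes of these moves were not tested. The other 60 values of the main results under an alternative stayed within 1.5 times or 1 SD of the value reported, and of the values of single genes and pairs under an alternative 0 changed sign and 22 moved. No test was made, paired or not, and no label pairs single cells across groups. Differences between groups were taken within each TH number, which all groups share. Low genes are limited by depth: at 50000 reads a gene at a few CPM has less than 1 read in most cells.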

Other observations

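Reads of genes on the sex chromosomes were looked at in the plasma high cells, since no label gave a sex. Xist, the RNA of the inactive X chromosome, had no read in any of the 290 cells at equal depth. Eif2s3y, a Y-linked translation factor, was read in 38.6%, 23.96% and 29.03% of cells in TH 1, 2 and 3, and Ddx3y, a Y-linked helicase, in 23.8%, 16.7% and 15.1%.

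Pairs with Cd52 differed from those with Lyz2. Cd52 was read in 64%, 44.4% and 44.4% of plasma high cells with Apoe and in 44.7%, 39.1% and 45.5% of those without it, and these shares overlapped. Cd52 and Apoe had rhos of 0.19, 0.07 and 0.07. Ctsb and Ctsz, both lysosomal cathepsins, had 0.32, 0.28 and 0.33, and the secreted matrix genes Olfml3 and Sparc had 0.33, 0.28 and 0.25. P2ry12 and Fcrls, both surface genes of resting microglia, had 0.28, 0.30 and 0.27. These pairs were chosen after their values were seen, and none reached 0.3 in each TH number.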
